A study of Homo sapiens with 12 samples.

Results

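The comparison described here is the addition of GSK2801 to cells that already received JQ1. The cells were 3 lines of triple-negative breast cancer, SUM159, MDAMB231 and HCC1806. Each line gave 1 library with JQ1 alone and 1 with JQ1 plus GSK2801, so that 6 of the 12 libraries of the study are compared as 3 pairs. The libraries were chosen by their treatment labels and paired by line. The JQ1 dose, the same in both members of a pair, was 300 nM for SUM159, 100 nM for MDAMB231 and 500 nM for HCC1806. GSK2801 was at 10 µM, and treatment lasted 72 h. The medium of SUM159 and MDAMB231 was DMEM/F12 supplemented with serum, hydrocortisone and insulin, and that of HCC1806 was RPMI 1640 with serum. Differences between lines therefore cannot be told apart from those of dose and medium. The other 6 libraries, DMSO (the vehicle) and GSK2801 alone in the same lines, are used to set the response to GSK2801 without JQ1 beside that with it. Every group is thus n = 3 lines with 1 library each, and all tests measure the spread between lines, not that between cultures of 1 line.

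JQ1 occupies the acetyl-lysine pockets of the BET family, which includes BRD2 and BRD3, and detaches them from acetylated chromatin. GSK2801 occupies the bromodomains of BAZ2A and BAZ2B, subunits of ISWI chromatin remodelling complexes, and binds BRD9 more weakly. BAZ2A is best known for its part in silencing ribosomal RNA genes. The comparison asks which transcripts differ when a bromodomain inhibitor of the BAZ2 class is added to BET inhibition.

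All values are the deposited signal, meaning estimated reads scaled to the same upper quartile in every library. Differences are log2(signal + 1) with JQ1 plus GSK2801 minus that with JQ1 alone, given as the mean over the 3 lines ± the SE of a limma fit with the line as block. The fit covered the 12200 genes with a mean signal of at least 50. The 12 libraries held 24200000 to 46800000 estimated reads, the deepest being MDAMB231 with both inhibitors, where the 10 highest genes also took the largest share (7.57%, against 4.36% at the lowest). List results that shift most with MDAMB231 are therefore also given without it. Summed markers set HCC1806 apart from the other lines. The summed signal of 6 basal epithelial genes was 50900 and 55729 in the HCC1806 libraries, against 137 to 536 in those of the other lines. That of 4 mesenchymal genes was 7752 and 14278 in HCC1806 against 150438 to 303860. Not every member followed its sum. With JQ1 and with both, KRT14 was 1.14 and 4.61 and KRT17 13.5 and 2.11 in HCC1806. CDH2 was 1412 and 1272 in HCC1806 against 4.65 and 5.38 in MDAMB231.

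The genes that were higher in every line with the second inhibitor included 20 of 23 histone genes, 58 of 101 lysosomal genes and 7 of 10 genes of the aryl hydrocarbon receptor list. Those that were lower in every line included 37 of 73 mitosis genes, 28 of 61 DNA replication genes and 14 of 42 nuclear envelope genes. Over all tested genes 23.9% were higher in every line and 20.6% lower. The mitosis median was −1.21 in MDAMB231 but −0.08 in SUM159 and −0.07 in HCC1806. The replication median was −0.62 in MDAMB231 against −0.07 and −0.13 in the same 2 lines. The gene of smallest p was HIST1H2BD, a histone H2B gene, which was 2.55-fold higher. CD68, a glycoprotein of the lysosomal membrane, was 2.37-fold higher, and NRM, which encodes the inner nuclear membrane protein nurim, was 2.13-fold lower. None of these passed an adjusted p of 0.05. In the limma fit of the 6 libraries, 0 of 12200 genes (0%) passed Benjamini-Hochberg adjusted p under 0.05, the lowest adjusted p was 0.0888, and 236 genes (136 higher and 100 lower) had one under 0.1. At an unadjusted p under 0.05 the fit held 2472 genes (20.3%), 1338 higher and 1134 lower, where 610 would be the number from chance alone. A sign permutation over 3 pairs cannot give a p below 0.25.

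A limma fit to all 12 libraries, with each line as 1 block without JQ1 and another with it, took its spread from the GSK2801 pairs both with and without JQ1. It passed 486 genes as higher (3.98% of those tested) and 517 as lower (4.24%). All 1003 had 1 sign in the 3 lines, but the fit favours differences that are alike between lines, so this is no further support. The calls of this 12-library fit are used below as a second reading, with the following limits. The 6-library fit was the planned test, and this one was taken up after that test had passed 0 genes. Of the settings that used all 3 lines, only this one passed any gene. In the gene lists below, a gene that passed did so in this fit and not in the planned test. The spread of the GSK2801 difference between lines was larger with JQ1 (median SD 0.174) than without it (0.118), so the pooled spread is smaller than that of the pairs of interest. The calls also fall to 0 without SUM159, 64 without MDAMB231 and 1 without HCC1806. In the lists described below, 0 genes pass without SUM159 and 1, a histone gene, without HCC1806, and each list holds 0 to 5 passing genes without MDAMB231. By sign alone, 2914 genes (23.9%) were higher in all 3 lines and 2513 (20.6%) lower, and list counts by sign are read against those shares. List counts of genes that passed are read against the shares of 3.98% higher and 4.24% lower.

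CD68 lies on chromosome 17 from 7579467 to 7582113 on the forward strand (GENCODE v29, hg38). Its signal with JQ1 and then with both inhibitors was 599.8 and 1349 in SUM159, 4279 and 8767 in MDAMB231, and 344 and 994 in HCC1806. The addition gave a higher value in each pair, although the lines differ so much in level that the groups overlap. The difference was 1.24 ± 0.11 (adjusted p = 0.0888; 0.00913 in the 12-library fit). Without JQ1 the same lines went from 845 to 1023, 3128 to 3848 and 978 to 1273 with GSK2801, a difference of 0.32 ± 0.05. JQ1 alone differed by line, with log2 values of CD68 against DMSO of −0.49 in SUM159, 0.45 in MDAMB231 and −1.50 in HCC1806; that comparison shares the JQ1 libraries. CD68 is also a usual macrophage marker. Of 9 blood and macrophage markers, 0 had a mean signal of 50 or more with either treatment, and their summed signal was 21.6 to 39.1 with JQ1 and 14.7 to 68.0 with both. CD163, ITGAM, AIF1 and CD3E were listed at 0 in all 3 libraries with both inhibitors.

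SQSTM1, the gene of the autophagy receptor p62 and a target of NRF2, lies on chromosome 5 from 179806398 to 179838078. Its signal was 14704 and 25230 in SUM159, 11254 and 20282 in MDAMB231, and 6655 and 9632 in HCC1806, with JQ1 and with both. It was higher in each pair, by 0.72 ± 0.09 (adjusted p = 0.0888; 0.0122 in the 12-library fit). The difference without JQ1 was 0.41 ± 0.08.

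NRM lies on chromosome 6 from 30688047 to 30691420 on the reverse strand. Its signal went in SUM159 from 822 to 338, in MDAMB231 from 629 to 274, and in HCC1806 from 1789 to 1029. It was lower in each pair, by the least in HCC1806 (−0.80) and by the most in SUM159 (−1.28), and the mean was −1.09 ± 0.12 (adjusted p = 0.0888; 0.0101 in the 12-library fit). Without JQ1 the mean was −0.34 ± 0.06, again negative in the 3 lines. Against DMSO, JQ1 alone left NRM at −0.16.

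**Figure D1:**
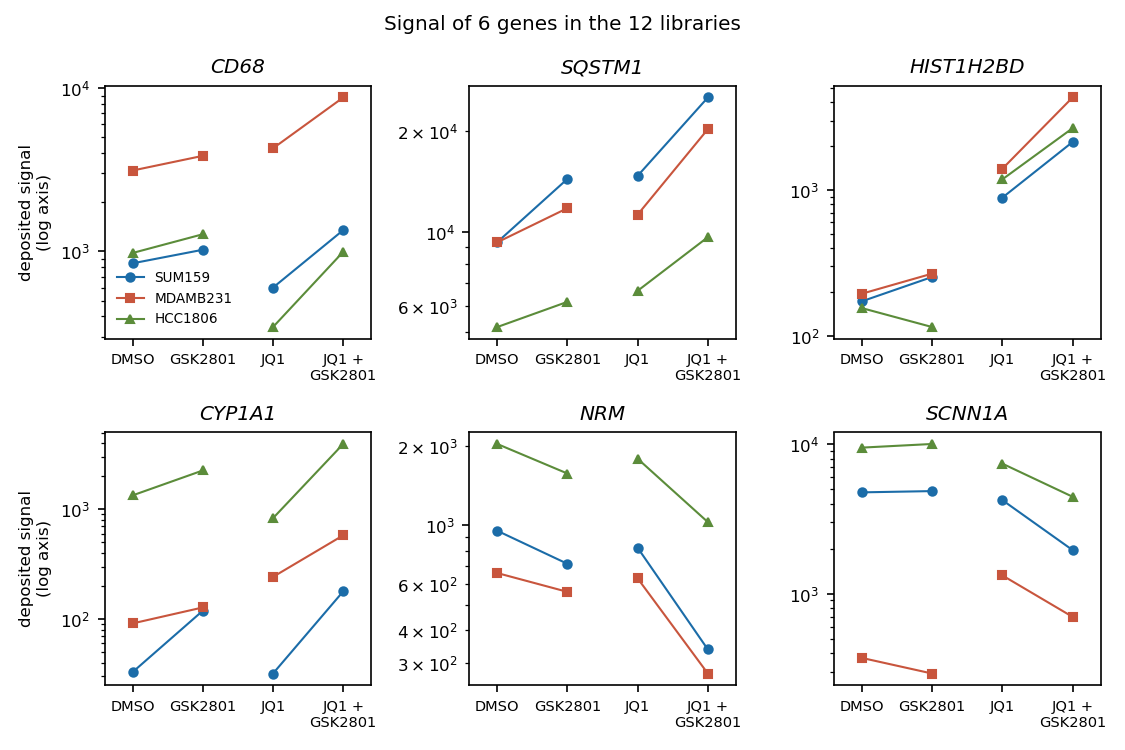
Deposited signal on a log axis of CD68, SQSTM1, HIST1H2BD, CYP1A1, NRM and SCNN1A in the 12 libraries, with lines joining DMSO to GSK2801 and JQ1 to JQ1 plus GSK2801 within a cell line. Each right-hand segment slopes the same way in the 3 lines, upward for CD68, SQSTM1, HIST1H2BD and CYP1A1 and downward for NRM and SCNN1A.

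Among the 12 genes of smallest p on the higher side, CYP1A1, a cytochrome P450 induced through the aryl hydrocarbon receptor, had the largest difference, 1.98 ± 0.24. Its signal went in SUM159 from 31.9 to 178.6, in MDAMB231 from 241.9 to 579, and in HCC1806 from 829 to 3934, so the level differed more between lines than within a pair. MAP1A, which encodes a microtubule-associated protein, was 1.09 ± 0.10 higher. DGAT1, which makes the last step of triglyceride synthesis, was higher by 0.79 ± 0.10, and SLC27A4, a fatty acid transport protein, by 0.53 ± 0.07. PEPD, the dipeptidase prolidase, showed nearly the same difference in every line (0.61, 0.57 and 0.62), as did EPHX1, the microsomal epoxide hydrolase (0.59, 0.62 and 0.55). PTPRS, a receptor tyrosine phosphatase, stood at 0.66 ± 0.08. HIST2H2AA4 (1.58 ± 0.20) shares near-identical sequence with HIST2H2AA3, so its own value is uncertain.

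Among the 12 genes of smallest p on the lower side, SCNN1A, the alpha subunit of the epithelial sodium channel, went in SUM159 from 4230 to 1959, in MDAMB231 from 1325 to 699.7, and in HCC1806 from 7422 to 4457. All 3 pairs were lower, with a mean of −0.92 ± 0.09. ANXA8, an annexin with near-identical copies in the genome and thus an uncertain value, stood at −1.07 ± 0.12, and ADGRG6, an adhesion G protein-coupled receptor, at −0.88 ± 0.10. CAV1, the coat protein of caveolae, went from 5935 to 3114, from 13108 to 8771 and from 12858 to 8173 in SUM159, MDAMB231 and HCC1806 (mean −0.72 ± 0.09). SORBS3, which encodes the focal adhesion protein vinexin, was at −0.77 ± 0.10, and ARPIN, an inhibitor of the Arp2/3 complex, at −0.71 ± 0.10. ANAPC15, a subunit of the anaphase-promoting complex (−0.79 ± 0.10), GPX8, an endoplasmic reticulum peroxidase (−0.74 ± 0.10), and MZT2B, a partner of the gamma-tubulin complex (−0.72 ± 0.10), were also lower in each line. TMEM168 (−0.69 ± 0.09) and NHLRC2 (−0.60 ± 0.08) complete the 12. Each gene of the 2 sides had adjusted p = 0.0888 in the limma fit of 6 libraries and passed the 12-library fit.

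**Figure D2:**
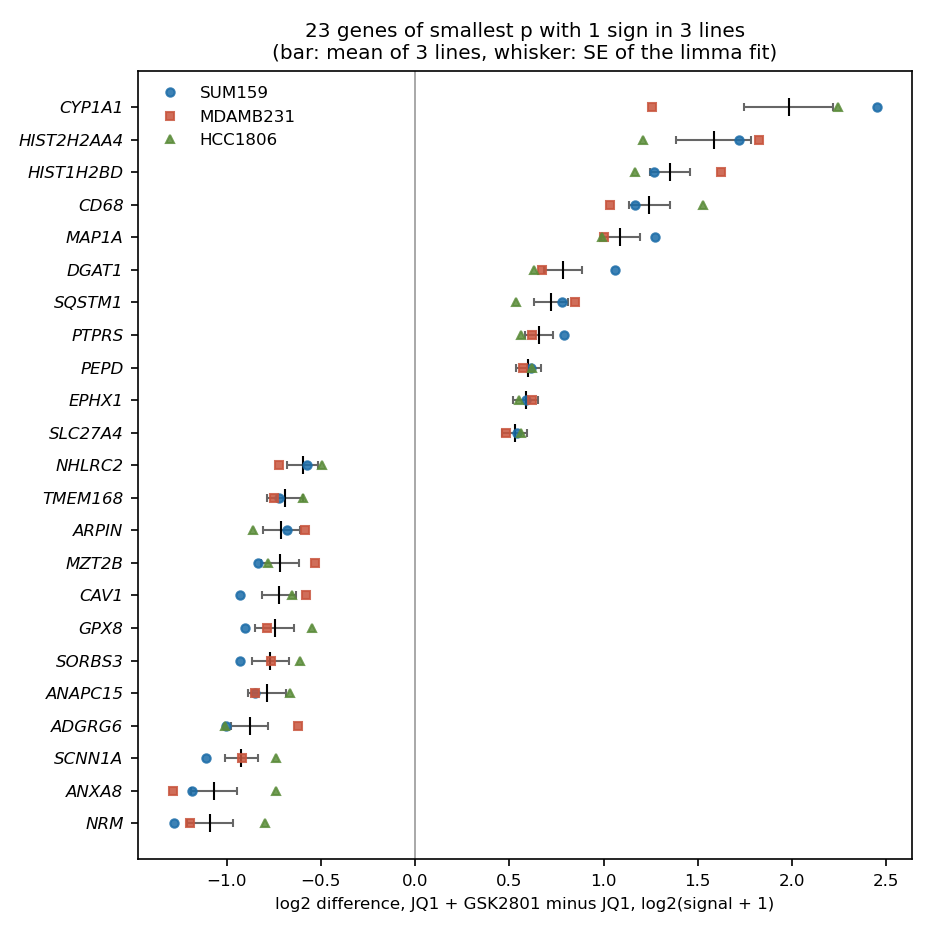
Log2 difference, JQ1 plus GSK2801 minus JQ1, of 23 genes among the 12 of smallest p on each side, with 1 symbol per line, the mean of the 3 lines as a bar and the SE of the limma fit as a whisker. No gene crosses 0 in any line, and CYP1A1 has the widest range between lines, from 1.26 in MDAMB231 to 2.45 in SUM159.

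By size rather than by p, 53 genes were at least 1.5-fold higher in every line and 68 at least 1.5-fold lower. At 2-fold these were 9 and 4. The 9 were CD68, CYP1A1, 4 histone genes (HIST1H2BD, HIST2H2AA4, HIST2H3A and HIST2H3C, the last pair with the same values in every library), S100P, S100A9 and SEMA6D. S100P, a calcium-binding protein gene, had signals of 7.43 and 311.8 in SUM159, 10.0 and 36.0 in MDAMB231, and 2.28 and 30.9 in HCC1806. With JQ1 alone each of its values lay below the filter of 50, so it was tested through its higher libraries and its size is not ranked. Levels near 0 set some of these values: S100A9 was listed at 0 in MDAMB231 with JQ1 and at 1.33 with both. The 4 lower genes were MTMR11, a myotubularin-related phosphatase gene (−1.34 ± 0.23), TLR6, SLCO4C1 and PRTFDC1.

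Lysosomes break down macromolecules at a low pH that the vacuolar proton ATPase maintains, and many of their genes carry short E-box motifs bound by TFEB, TFE3 and MITF. Of 101 tested genes in 3 lists (hydrolases, membrane proteins and proton pump subunits), 58 were higher in all 3 lines and 7 lower. In the 12-library fit 27 were higher and 0 lower. The median difference was 0.16, against 0.01 over all genes, with 0.14, 0.22 and 0.18 in SUM159, MDAMB231 and HCC1806. Without MDAMB231 the median was 0.15 and 3 genes passed.

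Among hydrolases and their activators, 15 of 47 passed the 12-library fit as higher. NEU1, the lysosomal sialidase, went in SUM159 from 2715 to 4928, in MDAMB231 from 2159 to 3581, and in HCC1806 from 3126 to 4378, a difference of 0.69 ± 0.09. CTSA, the cathepsin that protects NEU1, was higher by 0.59 ± 0.08. LGMN, the asparagine endopeptidase legumain, stood at 0.60 ± 0.14 and was largest in SUM159 (1.05, against 0.36 and 0.40). CTSD, the main lysosomal aspartic protease, had 0.43, 0.42 and 0.48 in the 3 lines. GRN, the progranulin gene, stood at 0.44 ± 0.07, and GLA, the alpha-galactosidase, at 0.45 ± 0.09. CTSB, a cathepsin in the same list, showed 0.04 ± 0.09 and did not pass.

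Among 36 membrane proteins and transporters, 7 passed as higher. MCOLN1, the calcium channel mucolipin, went from 642 to 1155, from 571 to 874 and from 688 to 893 in SUM159, MDAMB231 and HCC1806 (0.61 ± 0.11). CLCN7, a chloride-proton exchanger, stood at 0.43 ± 0.07, TPCN1, a two-pore channel, at 0.43 ± 0.10, and LAMP1, an abundant membrane glycoprotein, at 0.30 ± 0.09. Of 18 proton ATPase subunits, 15 were higher in all 3 lines and 0 lower, and 5 passed, led by ATP6V0C, part of the membrane rotor (0.59 ± 0.08). ATP6V1G1, of the cytosolic stalk, stood at 0.24 ± 0.07. Over the 101 genes the difference ranged from −0.34 to 1.24.

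Of the 27 lysosomal genes that passed the 12-library fit, 19 had a promoter in the RefSeq table (GRCh38.p14) and 8 of these had the E-box letters CACGTG, which read the same on either strand, in the 250 bases before the gene start. The share with this motif was 8 of 33 hydrolase promoters (24.2%), 7 of 28 membrane protein promoters (25%) and 4 of 13 proton pump promoters (30.8%). Over all 35116 promoters it was 6.35%, and over the 9654 of tested genes 8.93%. A match describes the sequence and does not show that a factor is bound. The following stretches hold the motif in genes that passed the 12-library fit but not the 6-library fit. Those of the other genes with the motif overlap an untranslated region and are not printed. Capitals mark CACGTG, and each stretch runs 5′ to 3′ on the strand of its gene. They lie before the gene start at chr6:31862922-31862967 on the reverse strand for NEU1, and on the forward strand at chr13:113297027-113297122 and chr13:113297191-113297236 for LAMP1, chr19:7522563-7522623 for MCOLN1 and chr9:114587691-114587736 for ATP6V1G1.
NEU1: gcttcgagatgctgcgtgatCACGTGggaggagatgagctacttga
LAMP1, upstream stretch: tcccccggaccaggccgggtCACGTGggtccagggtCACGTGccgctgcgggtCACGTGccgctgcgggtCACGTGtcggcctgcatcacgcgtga
LAMP1, near the start: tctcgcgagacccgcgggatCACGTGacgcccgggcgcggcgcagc
MCOLN1: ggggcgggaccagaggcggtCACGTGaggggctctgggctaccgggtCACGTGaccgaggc
ATP6V1G1: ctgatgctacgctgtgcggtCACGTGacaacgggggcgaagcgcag
In NEU1 the motif lies 126 bases before the start, in ATP6V1G1 58, in MCOLN1 41 and 14, and the 5 copies of LAMP1 lie between 192 and 28 bases before it.

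The autophagy machinery outside the lysosome differed less. Of 47 genes, 13 were higher in all 3 lines and 8 lower, 4 passed the 12-library fit as higher (0 without MDAMB231) and 0 as lower, and the median was 0.05. Beside SQSTM1 the 4 are MAP1LC3B, whose product LC3B coats autophagosomes (0.34 ± 0.08), ATG2A, a lipid transfer protein (0.30 ± 0.07), and VMP1 (0.23 ± 0.07). Among 31 MiT-TFE factors and mTORC1 sensors 1 passed as higher, MTOR at 0.25 ± 0.06, and 1 as lower, MLST8 at −0.37 ± 0.09. Both encode subunits of mTORC1. Neither count exceeds the share over all tested genes, 3.98% higher and 4.24% lower, so nothing is read from them about the list.

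NRF2 targets, which buffer oxidants and conjugate electrophiles, were higher in all 3 lines in 26 of 39 cases and lower in 2. In the 12-library fit 7 were higher and 1 lower. The median was 0.28, with 0.21, 0.30 and 0.09 in SUM159, MDAMB231 and HCC1806. It was 0.18 without SUM159 and 0.18 without MDAMB231, where 1 gene passed. PRDX1, a peroxiredoxin, went from 22245 to 32647, 11749 to 16236 and 11516 to 13790 in SUM159, MDAMB231 and HCC1806 (0.43 ± 0.09). The aldo-keto reductase AKR1B1 stood at 0.47 ± 0.08 and GCLC, of glutathione synthesis, at 0.32 ± 0.09. AKR1C3 (1.36 ± 0.35) and AKR1C2 (0.79 ± 0.17) are close paralogs with levels near 0 in some lines, so their values are uncertain. The exception was SLC7A11, the cystine importer, which went from 1738 to 1017, from 7400 to 3499 and from 2649 to 2226 (−0.70 ± 0.15). Without JQ1, GSK2801 left SLC7A11 at 0.06. The antioxidant element core TGACNNNGC stood on either strand in 6 of 28 promoters of this list (21.4%), against 12.1% of those of tested genes.

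In the aryl hydrocarbon receptor list 7 of 10 genes were higher in all 3 lines, and CYP1A1, CYP1B1 and PDK4 passed the 12-library fit. Membership in the list does not show that the receptor acts on a gene here, PDK4 included. Without MDAMB231 the median of the list went from 0.36 to 0.27 and 1 gene passed. CYP1A1 stood at 1.98 with JQ1 and at 1.02 ± 0.26 without it. CYP1B1, another P450 of this receptor, stood at 0.91 ± 0.17 with JQ1 and at 1.05 without it. PDK4, the kinase that shuts pyruvate dehydrogenase, stood at 0.98 ± 0.16 with JQ1 and 1.34 without. The core letters bound by this receptor, GCGTG on either strand, stood in 4 of 9 promoters of the list (44.4%), against 46.3% of those of tested genes.

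Genes of fatty acid oxidation and storage that respond to PPAR receptors had 10 of 37 members pass as higher and 0 as lower, with a median of 0.19. Without MDAMB231 the median was 0.24 and 5 genes passed. CPT1A, which admits fatty acids to mitochondria, went in SUM159 from 1924 to 3208, in MDAMB231 from 2861 to 3975, and in HCC1806 from 8635 to 12891 (0.60 ± 0.08). ANGPTL4, a secreted lipase inhibitor, stood at 1.45 ± 0.31, with 2.22 in SUM159 and 0.42 in MDAMB231. FABP4, a fatty acid chaperone, went from 202.8 to 1510 in SUM159 but was listed at 0 with JQ1 in MDAMB231 and HCC1806, at 0.667 and 5.33 with both. It is counted among the 10, although its values in MDAMB231 and HCC1806 lie near 0. PNPLA2, the triglyceride lipase of lipid droplets, stood at 0.46 ± 0.09. ANGPTL4 (1.53), VLDLR (0.82, against 0.71 with JQ1) and PNPLA2 (0.46) had about the same difference without JQ1, while DGAT1, of the same list, had 0.79 with JQ1 and 0.13 without. Cholesterol and fatty acid synthesis genes did not share this pattern: 0 of 43 passed as higher and 4 as lower, namely SREBF1, the factor that drives lipogenic genes (−0.43 ± 0.08), FADS2 (−0.47 ± 0.09), ACAT2 (−0.43 ± 0.12) and FDPS (−0.35 ± 0.07). Their median of −0.06 was 0.01 without MDAMB231, and 0 genes passed there.

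Histone genes had the highest median of the lists, 0.73 over 23 genes. By line it was 0.69, 1.07 and 0.67 (SUM159, MDAMB231, HCC1806), and 0.69 when MDAMB231 was left out. Of the 23, 20 were higher in all 3 lines and 1 lower, and in the 12-library fit 10 were higher and 1 lower. Near-identical copies such as HIST2H2AA3 and HIST2H2AA4 are counted separately, so the members are not all independent. Without MDAMB231 1 gene of the list passed, without HCC1806 also 1, and without SUM159 0. HIST1H2BD, on chromosome 6 from 26158146 to 26171349, went in SUM159 from 887 to 2138, in MDAMB231 from 1400.3 to 4324, and in HCC1806 from 1185 to 2659. The lowest value with both inhibitors lay above the highest with JQ1. HIST1H2AC (1.09 ± 0.14), HIST1H2BC (1.36 ± 0.18) and HIST1H1C, a linker histone (1.30 ± 0.22), showed the same direction. The linker histone gene H1FX was the lower one, at −0.23 ± 0.07. GSK2801 without JQ1 left the list at a median of 0.14, and JQ1 against DMSO, which shares the JQ1 libraries, at 1.74. Most histone mRNAs of dividing cells end without a poly(A) tail, and the libraries were made from polyadenylated RNA, so the signal is that of polyadenylated histone transcripts. In the histone variant and chaperone list 0 of 25 passed as higher and 4 as lower, H2AFV (−0.47 ± 0.07), DEK (−0.39 ± 0.10), SSRP1 (−0.30 ± 0.07) and DAXX (−0.28 ± 0.08). Its median of −0.11 came from MDAMB231 (−0.25, against 0.00 in SUM159 and −0.01 in HCC1806), and without that line 1 gene passed.

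**Figure D3:**
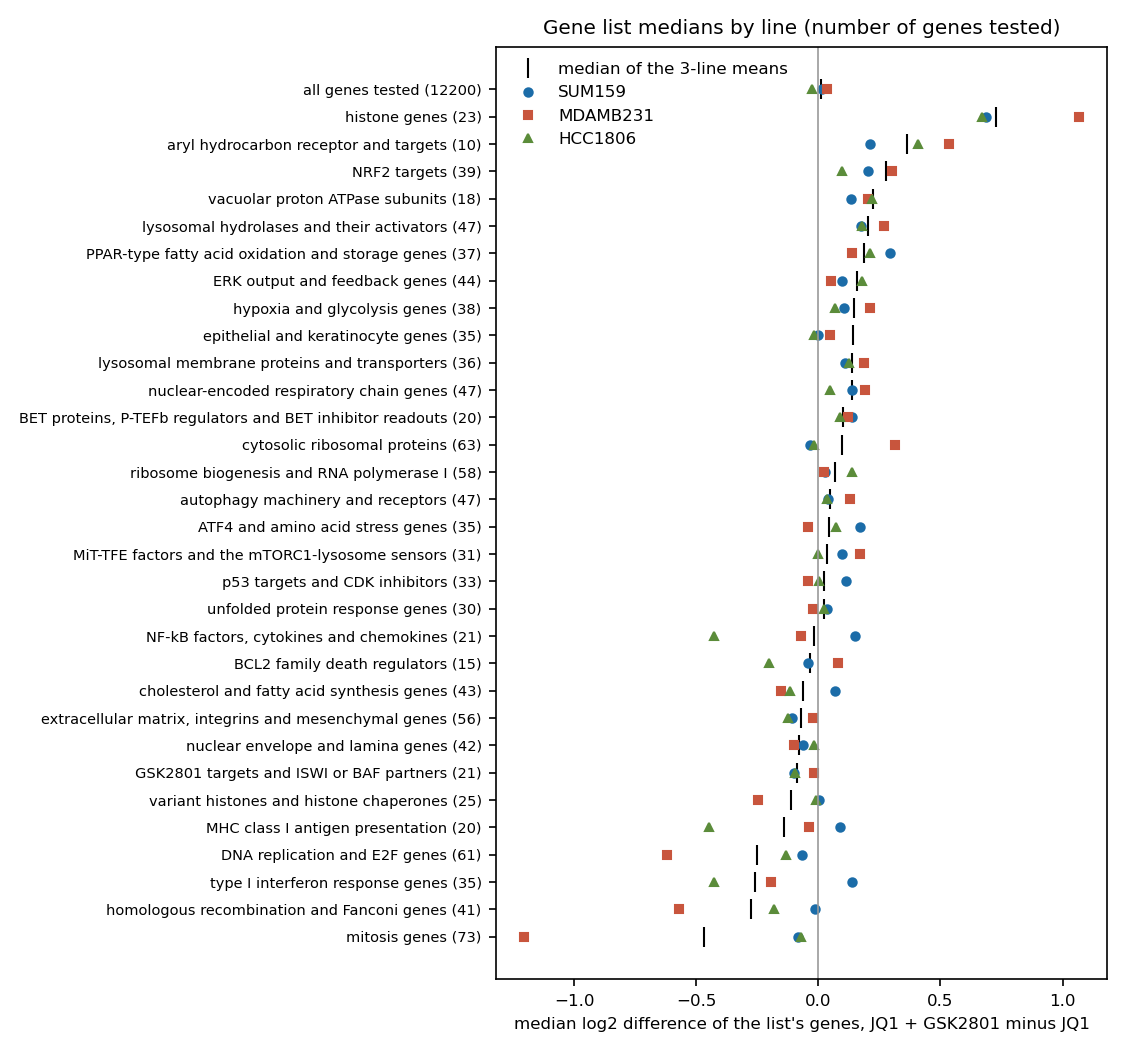
Median log2 difference, JQ1 plus GSK2801 minus JQ1, of each gene list with the number of genes tested, with 1 symbol per line and a bar for the median of the 3-line means. Histone genes stand highest, between 0.67 and 1.07, mitosis genes are lowest through MDAMB231 (−1.21, against −0.08 in SUM159 and −0.07 in HCC1806), and all genes lie near 0.

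Transcripts of the inhibitors' own targets were mostly level. BAZ2A went in SUM159 from 3423 to 3470, in MDAMB231 from 4863 to 5027, and in HCC1806 from 4336 to 4391, a difference of 0.03 ± 0.06. BAZ2B showed −0.08 ± 0.11, BRD9 −0.13 ± 0.08 and BRD3 0.09 ± 0.08, and none passed either fit. The sign of BAZ2A flips under quantile normalization. BRD2 went from 19240 to 28910, 12676 to 17739 and 16440 to 21530 in SUM159, MDAMB231 and HCC1806 (0.49 ± 0.09; adjusted p = 0.0983; 0.0141 in the 12-library fit). In a list of GSK2801 targets and of ISWI or BAF complex genes, 3 of 21 passed as lower and 0 as higher. The 3 were SMARCC2 (−0.35 ± 0.07), ARID1B (−0.27 ± 0.07) and BICRA (−0.43 ± 0.12), all of BAF-type remodelling complexes. Membership in this list does not show that a gene's product shares a complex with BRD9 or the BAZ2 proteins.

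HEXIM1, the inhibitor of the elongation kinase P-TEFb and a usual marker of BET inhibition, had nearly 1 difference in the 3 lines. It went in SUM159 from 7083 to 9756, in MDAMB231 from 6483 to 8933, and in HCC1806 from 6270 to 8566, which is 0.46, 0.46 and 0.45 on the log2 scale (mean 0.46 ± 0.07; adjusted p = 0.0939; 0.0101 in the 12-library fit). With GSK2801 alone it stood at 0.04. JQ1 alone stood at 1.23 against DMSO. LARP7, which holds the same 7SK particle together, was at −0.44 ± 0.08. MYC showed 0.12 ± 0.12 with opposite signs in SUM159 (−0.18) and MDAMB231 (0.42), FOSL1, an AP-1 subunit gene, 0.09 ± 0.15, and the CDK inhibitor gene CDKN1A 0.16 ± 0.08. None of these 3 passed either fit.

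Among the nuclear envelope and lamina genes, the group of NRM, 5 of 42 passed as lower and 1 as higher, with a median of −0.08. NRM is 1 of the 5. The others are BANF1, a chromatin-bridging protein (−0.52 ± 0.09), TMPO, which encodes the LAP2 proteins (−0.48 ± 0.12), NUP210, a pore membrane protein (−0.46 ± 0.10), and LMNB2, a B-type lamin (−0.41 ± 0.08). TOR1AIP2 was the higher one, at 0.27 ± 0.07. By sign, 14 of 42 were lower in all 3 lines and 8 higher, and without MDAMB231 the median was −0.04 and 1 gene passed.

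DNA replication and E2F genes passed as lower in 13 of 61 cases and as higher in 0, and 28 were lower in all 3 lines. MCM5, a subunit of the replicative helicase, went in SUM159 from 1992 to 1403, in MDAMB231 from 1314 to 719, and in HCC1806 from 2330.2 to 1520.4 (−0.66 ± 0.09). DUT, the dUTPase, stood at −0.55 ± 0.08, CDC7, the kinase that fires origins, at −0.59 ± 0.10, GINS2 at −0.72 ± 0.17 and TK1, thymidine kinase, at −0.58 ± 0.14. The median of the list was −0.25, but it was −0.62 in MDAMB231, −0.07 in SUM159 and −0.13 in HCC1806. Without MDAMB231 it was −0.08 and 1 gene of the list passed.

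Of 73 mitosis genes, 37 were lower in all 3 lines and 0 higher, and 1 passed the 12-library fit. This was FOXM1, a factor that drives such genes (−0.85 ± 0.16, with −0.57, −1.38 and −0.59 in SUM159, MDAMB231 and HCC1806). The list's median of −0.47 came from MDAMB231 (−1.21), and without that line it was −0.10 and 1 gene passed. MKI67, the proliferation marker, showed this split: its signal went from 7290 to 1936 in MDAMB231, from 11278 to 13064 in SUM159 and from 35693 to 33186 in HCC1806. The mean was −0.60 ± 0.38 and turned to 0.05 without MDAMB231. BIRC5, survivin, stood at −0.49 ± 0.22, with −1.23 in MDAMB231. As these are bulk samples, fewer cycling cells and less RNA per cell cannot be told apart, and the part of depth in the MDAMB231 values was not tested. The letters TTTGAA of the cell cycle homology element stood in 26 of 61 mitosis gene promoters (42.6%), on either strand, against 7.97% of the promoters of tested genes. Homologous recombination and Fanconi genes had a median of −0.28 and passed as lower in 3 of 41 cases, RAD51D (−0.78 ± 0.20), TOPBP1 (−0.52 ± 0.10) and NBN (−0.32 ± 0.09). Without MDAMB231 this median was −0.10 and 0 genes passed.

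CDKN1B and RBL2 encode p27 and the pocket protein p130, known as brakes on the cell cycle. CDKN1B went from 708 to 567, from 1686 to 1346 and from 1447.5 to 1146 (−0.33 ± 0.08). It was the 1 gene of 33 in the p53 target and CDK inhibitor list to pass the 12-library fit as lower, and 2 passed as higher. The count as lower does not exceed the 4.24% of all tested genes. RBL2 stood at −0.55 ± 0.08 with JQ1 and 0.14 without it.

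Matrix, integrin and mesenchymal genes passed as lower in 6 of 56 cases and as higher in 2. Over all tested genes the shares were 4.24% lower and 3.98% higher. COL5A1, a fibrillar collagen chain, went from 28389 to 19117, from 2442 to 2042 and from 8314 to 5468 in SUM159, MDAMB231 and HCC1806 (−0.48 ± 0.09). COL1A1 stood at −0.66 ± 0.13, the matrix glycoprotein thrombospondin gene THBS1 at −0.45 ± 0.11 and the collagen crosslinking enzyme LOX at −0.56 ± 0.19. MMP1, interstitial collagenase, was higher by 1.11 ± 0.23, with 1.84 in HCC1806, and COL6A1 by 0.34 ± 0.08. Without MDAMB231 1 gene of the list passed.

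Interferon response genes passed as lower in 2 of 35 cases, OAS3, an oligoadenylate synthetase (−1.06 ± 0.20), and IFI44 (−0.96 ± 0.24), and as higher in 0. Over all tested genes 4.24% passed as lower, a share close to that of this list. The list's median of −0.26 hid opposite signs, 0.14 in SUM159, −0.19 in MDAMB231 and −0.43 in HCC1806, and it was −0.05 without HCC1806. Antigen presentation by MHC class I had 2 of 20 genes pass in each direction: HLA-E (0.37 ± 0.09) and B2M, the light chain (0.25 ± 0.09), were higher, and PSMB8, of the immunoproteasome (−0.51 ± 0.15), and TAP2, a peptide transporter (−0.44 ± 0.11), were lower.

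Respiratory chain genes encoded in the nucleus were higher in all 3 lines in 32 of 47 cases and lower in 2, and 6 passed as higher. The differences were small, with a median of 0.14 that was 0.11 without MDAMB231, where 0 genes passed, and COX6A1 and COX5B, subunits of cytochrome oxidase, had 0.30 each. Ribosome biogenesis genes are of interest because BAZ2A acts at ribosomal RNA genes. They passed as higher in 4 of 58 cases and as lower in 1, GAR1 (−0.49 ± 0.11). Among the 4 were RRN3, an initiation factor of RNA polymerase I (0.29 ± 0.07), and BOP1 (0.26 ± 0.07). The shares over all tested genes were 3.98% higher and 4.24% lower, and without MDAMB231 0 genes of the list passed. Nothing is therefore read from these counts about the list. Cytosolic ribosomal protein genes had 0 of 63 pass. Their median of 0.10 came from MDAMB231 (0.32), and it was −0.02 without that line and −0.0046 under quantile normalization. Of 15 tested BCL2 family genes, 0 passed. The unfolded protein response list also had 0 of 30 pass, with a median of 0.02.

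The response to GSK2801 with JQ1 was then set against that without it, GSK2801 against DMSO in the same lines, which shares no library with the first. Across the 12200 genes, the mean differences with and without JQ1 had Pearson's r = 0.35, a description over genes that are not independent. Between lines, the differences with JQ1 had r of 0.25 to 0.31. GSK2801 against DMSO passed 0 genes in the same limma fit, with a lowest adjusted p of 0.186 and 1782 genes at an unadjusted p under 0.05. Of the 236 genes with adjusted p under 0.1 with JQ1, 218 had the same sign without JQ1. Their median absolute difference was 0.56 with JQ1 and 0.18 without. As these genes were chosen on the values with JQ1, nothing is read from the gap. The share of all tested genes with the same sign was not computed, so nothing is read from the 218 either.

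**Figure D4:**
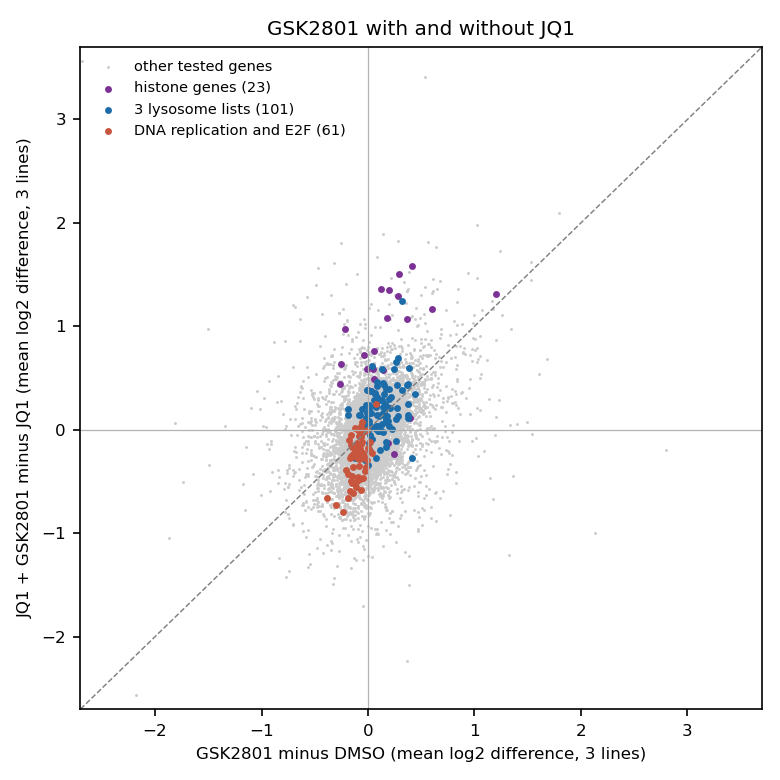
Mean log2 difference over 3 lines with GSK2801 in the absence of JQ1 (horizontal) and in its presence (vertical), 1 point per gene, with the dashed line marking equal differences. Most histone genes lie above the dashed line, with a median of 0.73 against 0.14, the 101 lysosomal genes gather to the upper right of the origin and the 61 replication genes to its lower left.

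The difference between the 2 responses was tested directly on 12396 genes with limma. It passed 0 genes, with a lowest adjusted p of 0.369, and 1237 genes had an unadjusted p under 0.05 where chance alone would give 619.8. Among the 5 of smallest p in each direction, CD68 had a difference of responses of 0.93 ± 0.11, higher with JQ1 in 3 of 3 lines (0.89, 0.74 and 1.15), with adjusted p = 0.369. HIST1H2BD stood at 1.16 ± 0.18 and TRNP1 at 0.92 ± 0.12. ALPP, the placental alkaline phosphatase, stood at 1.93 ± 0.23, with a signal of 0 to 5.61 in SUM159. C16orf91 stood at 1.55 ± 0.25, with a signal of 44.8 to 298 over the 12 libraries. The 2 responses of TRNP1, ALPP and C16orf91 had opposite signs. They were 0.38, 1.61 and 1.12 with JQ1 and −0.53, −0.32 and −0.43 without it. In the other direction, ANXA8 had −1.04 ± 0.14, SCNN1A −0.84 ± 0.12, ADGRG6 −0.74 ± 0.11, RBL2 −0.70 ± 0.10 and LAMA5, a laminin chain, −0.61 ± 0.09. ANXA8, SCNN1A and ADGRG6 were close to level with GSK2801 alone, at −0.02, −0.08 and −0.13. LAMA5 and RBL2 had the opposite sign there, 0.28 and 0.14. CAV1 already stood at −0.50 with GSK2801 alone. Genes of the PPAR and aryl hydrocarbon receptor lists went both ways: PDK4, CYP1B1 and ANGPTL4 had differences no smaller without JQ1, while CYP1A1 had a difference of responses of 0.96 ± 0.21 and DGAT1 one of 0.65 ± 0.11, both larger with JQ1 (adjusted p = 0.389 each). None of these differences of responses passed the adjusted threshold.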

How the data were processed

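Polyadenylated RNA was sequenced from 12 libraries. Per the submitters' processing notes, STAR 2.4, Salmon 0.60 and build 38 were used; the annotation and scaling step are not given in the sources used here, and the labels name 2 library kits. The deposited signal was never negative, mostly not whole and had the same upper quartile in each library, so no count model was run. Of 28539 entries, 27 with symbols turned into dates were left out (0.168% to 0.218% of the signal). Of the tested genes, 98.6% had a GENCODE v29 symbol.

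Log2(signal + 1) was fitted with limma 3.58.1 (R 4.3.3), with variance trend, line as block, 2 residual and 4.29 prior degrees of freedom, and Benjamini-Hochberg adjustment over all tested genes; the script was tested on simulated data. Libraries with the same replicate number come from 1 cell line, which is the pairing used. The genes named were CD68, SQSTM1 and NRM, 12 of smallest p per direction with 1 sign in 3 lines, drug targets and readouts, and members of 34 gene lists, 31 of which had at least 5 tested genes, plus 5 per direction for the difference of responses; list members past the 12-library fit and genes at least 2-fold apart in every line were added after their values were seen. Libraries, lists and rules were chosen with earlier results of these data known. Some genes that these rules select are not reported here.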

Additional observations from a re-analysis of the deposited data

How the results depend on the processing

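With the cell line as the replicate block (the paired design), 0 genes passed in either direction, and 0 passed with no replicate block, with all 12 libraries and the line as block, under pseudocount 10, 3 other filters, 2 other scalings, no variance trend or a 1.2-fold threshold; the lowest adjusted p among these was 0.0501, with pseudocount 10. All 12 libraries with 6 blocks gave 486 higher and 517 lower. Leaving out a line gave 0 to 55 higher and 0 to 28 lower, the largest numbers without MDAMB231. In the 12-library fit, leaving out a line, an alternative chosen after seeing the data, gave 0 to 30 higher and 0 to 34 lower, 0 of each without SUM159. The difference of responses gave 0 to 3 genes, the 3 without SUM159 and 1 without MDAMB231. Of 475 values of 34 single genes, 4 reversed: BAZ2A (−0.0307) under quantile normalization, MYC (−0.0297) and MKI67 (0.0535) without MDAMB231, and FOSL1 (−0.0584) without HCC1806; the cause was not tested. With 1 library per line and treatment, variation between cultures of a line was not measured.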
